A study of Homo sapiens with 10 samples.

Results

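The 6 human DNA topoisomerase genes, TOP1, TOP1MT, TOP2A, TOP2B, TOP3A and TOP3B, were examined by RNA sequencing in the lung cancer cell lines H460 and A549. They were chosen by symbol, as the enzyme class that doxorubicin acts on, from a table of 46427 genes, and all 6 had rows with reads in all 10 libraries. Parental H460 cells grown in 2 dimensions (2D) gave 3 libraries. Cisplatin-resistant (CR, 4 µM cisplatin, 1 library), paclitaxel-resistant (PR, 5 nM paclitaxel, 2 libraries) and doxorubicin-resistant (DR, 0.5 µM doxorubicin, 1 library) H460 cells were exposed to drug for 3 days, kept in fresh medium for 3 days and re-plated. These 4 drug-resistant libraries are therefore pools of cells that survived and attached again, not clones. Tumor spheroid (TS) cells, which the labels name after circulating tumor cells or sphere culture, had been passaged 3 times in suspension. They gave 1 H460 library and 1 A549 library, and A549 cells in 2D gave 1 library. Per the paper, TS medium held epidermal and basic fibroblast growth factors, while 2D medium held serum. Suspension and medium therefore changed together.

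Topoisomerases cut DNA, pass DNA through the cut and seal it again, which relieves the twisting that replication and transcription create. Type I enzymes cut a single strand and type II enzymes cut both strands. Each enzyme is joined to the DNA end for a moment, and drugs such as doxorubicin, which acts on type II enzymes, hold the enzyme at that step. Cisplatin crosslinks DNA and paclitaxel stabilises microtubules, and neither is a topoisomerase drug.

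Between 59499787 and 89541774 reads were counted on genes per library, and a topoisomerase had between 583 and 52414 reads in a library, so counting error was small and the few libraries set the precision. The epithelial keratins KRT8 and KRT18 were at 283 FPKM (fragments per kilobase of transcript, scaled to the library total) or more and 190 FPKM or more in every library, while EPCAM, another epithelial marker, did not exceed 1.04 FPKM. KRT19 ranged from 3.57 FPKM in A549 2D to 738 FPKM in CR cells. CDH1, which encodes E-cadherin, was nearly absent from the H460 libraries (at most 0.0266 FPKM) and was at 9.29 and 11.9 FPKM in the A549 libraries, so these epithelial markers were not uniform. The summed level of 3 blood markers did not exceed 0.215 FPKM and that of 2 endothelial markers did not exceed 0.0901 FPKM, with PTPRC, CD3E and PECAM1 at 0 in some libraries. The summed level of 3 fibroblast markers was 1.05 to 4.42 FPKM in parental and 5.50 to 13.4 FPKM in drug-resistant libraries, and its part in the results below was not tested. Of these, COL1A1 (0.155 ± 0.061 against 3.74 ± 3.07 FPKM, adjusted p = 0.00208) and DCN (0.012 ± 0.015 against 0.140 ± 0.128 FPKM, adjusted p = 0.0408) rose in edgeR, as did the endothelial VWF (0.0082 ± 0.0034 against 0.048 ± 0.027 FPKM, adjusted p = 0.023). The labels do not say that replicates were separate cultures, so p-values may measure technical spread.

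TOP2A mRNA was far lower in drug-resistant than in parental H460 cells. TOP2A is the type II enzyme of dividing cells, which untangles sister chromosomes before they separate. The level was 86.2, 95.2 and 69.2 FPKM in the 3 parental libraries, 3.21 FPKM in CR, 15.3 and 1.54 FPKM in the PR replicates and 2.99 FPKM in DR cells. All 4 drug-resistant libraries lay below all 3 parental libraries, and PR replicate 1 stood above the other drug-resistant libraries. The mean was 83.6 ± 13.2 FPKM (SD, n = 3) in parental and 5.77 ± 6.42 FPKM (SD, n = 4) in drug-resistant cells. The drug-resistant group pools the CR, PR and DR libraries, PR with both replicates. Its SD, and the SE and p-values of its tests here and below, therefore include differences between drugs. The fitted change of the read counts in edgeR was -3.99 on the log2 scale (SE 0.66, adjusted p = 0.00163), a 15.9-fold lower level, with a 95% interval from -5.45 to -2.54. It was the 13th largest fall among 18398 genes tested. In these bulk samples, fewer cells that express a gene and less RNA per cell cannot be told apart.

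**Figure D1:**
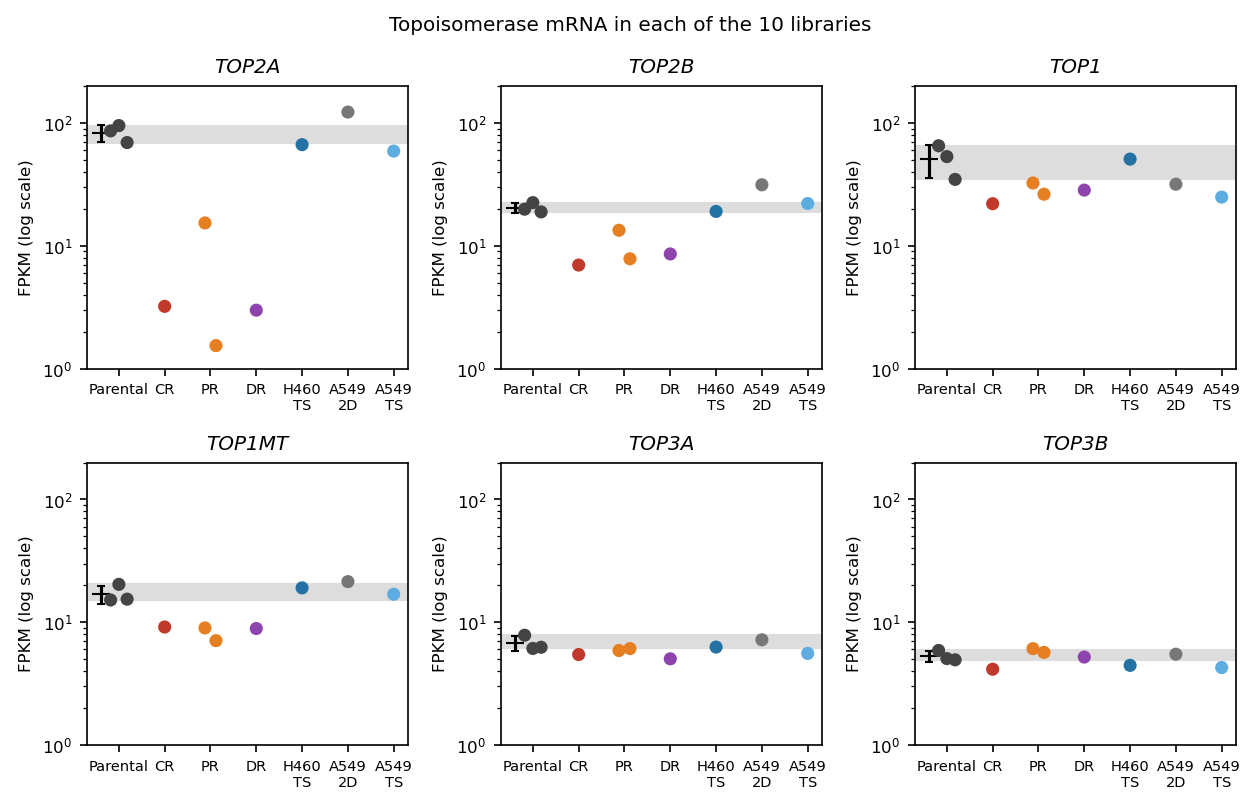
Level of each topoisomerase mRNA in FPKM, on a log axis, with 1 point per library. The black mark is the parental mean ± SD (n = 3) and the grey band spans the parental libraries. TOP2A lies between 1.54 and 15.3 FPKM in the 4 drug-resistant libraries, below the band, while TOP3B lies around it.

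TOP2B also fell, to a smaller extent. TOP2B is the type II enzyme that non-dividing cells also carry, and it acts at transcribed genes. Its level was 19.8, 22.4 and 18.9 FPKM in the parental libraries, 6.96 FPKM in CR, 13.4 and 7.83 FPKM in PR and 8.57 FPKM in DR cells. The groups did not overlap, and PR replicate 1 was again the highest of the drug-resistant libraries. The log2 change was -1.27 (SE 0.22, adjusted p = 0.0022), a 2.40-fold lower level.

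The make-up of type II topoisomerase mRNA differed between the groups. TOP2A gave 81.3%, 80.9% and 78.6% of the summed TOP2A and TOP2B FPKM in the parental libraries. It gave 31.5% in CR, 53.4% and 16.4% in the PR replicates and 25.8% in DR cells. Thus TOP2B was the more abundant of both mRNAs in CR, PR replicate 2 and DR cells, but not in PR replicate 1. From read counts in place of FPKM, the shares were 79.1% to 81.7% in parental and 16.5% to 53.1% in drug-resistant libraries.

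The sequences upstream of the start sites are shown because 4 topoisomerases, TOP2A and TOP2B among them, fell together and promoters of cell division genes often carry CCAAT boxes, bound by NF-Y, and cell cycle genes homology regions (CHR), bound by the MuvB complexes. The 250 bases before the RefSeq start site are printed in the direction of the gene (GRCh38.p14), with the CCAAT box, which reads as ATTGG on the other strand, and the CHR letters TTTGAA or TTCGAA, on either strand, in capitals. TOP2A on the minus strand is chr17:40417897-40418146, and the more upstream of the listed TOP2B start sites, also on the minus strand, gives chr3:25664908-25665157. TOP1 on the plus strand is chr20:41028572-41028821 and TOP3A on the minus strand is chr17:18314995-18315244. Both serve for comparison, although TOP1, unlike TOP3A, was itself called lower.
TOP2A: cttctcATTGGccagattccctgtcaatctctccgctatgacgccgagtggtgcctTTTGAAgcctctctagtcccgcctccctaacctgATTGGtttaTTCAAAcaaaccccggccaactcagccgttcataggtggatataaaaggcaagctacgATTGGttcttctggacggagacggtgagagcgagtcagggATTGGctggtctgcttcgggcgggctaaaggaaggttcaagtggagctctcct
TOP2B: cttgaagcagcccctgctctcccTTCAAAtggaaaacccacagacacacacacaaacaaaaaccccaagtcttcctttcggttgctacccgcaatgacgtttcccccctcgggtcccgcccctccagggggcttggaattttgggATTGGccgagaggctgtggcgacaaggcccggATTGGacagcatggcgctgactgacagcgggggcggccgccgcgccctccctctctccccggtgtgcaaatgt
TOP1: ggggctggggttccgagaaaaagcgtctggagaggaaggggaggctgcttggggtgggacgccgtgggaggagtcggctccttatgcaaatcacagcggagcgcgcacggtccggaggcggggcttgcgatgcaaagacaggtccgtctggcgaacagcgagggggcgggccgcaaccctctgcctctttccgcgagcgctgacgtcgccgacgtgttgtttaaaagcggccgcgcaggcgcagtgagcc
TOP3A: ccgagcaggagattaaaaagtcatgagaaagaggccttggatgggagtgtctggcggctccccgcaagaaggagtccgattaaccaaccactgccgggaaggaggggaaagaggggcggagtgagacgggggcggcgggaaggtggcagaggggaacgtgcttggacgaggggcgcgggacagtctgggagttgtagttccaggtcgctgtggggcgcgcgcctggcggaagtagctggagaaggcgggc

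The TOP2A sequence held 4 CCAAT boxes and 2 CHR matches. The printed TOP2B sequence held 2 CCAAT boxes and 1 CHR match, and the sequence at its other listed start site held 0 of both. TOP1, which was called lower, held 0 of both, as did TOP3A and TOP3B, which were not called. TOP1MT, which was also called lower, was not searched here. Among 35116 sequences of this length upstream of 27305 genes, 32.0% held a CCAAT box, 0.874% held 4 or more, 14.3% held a CHR match and 1.90% held 2 or more. The GC box (GGGCGG on either strand), which Sp1 binds, was in 42.6% of these sequences and was found once in TOP2A and TOP1 and 2 times in TOP3A and the printed TOP2B sequence. The E2F site (TTTCCCGC, TTTGGCGC, TTTCGCGC or TTTGCCGC on either strand, in 2.79% of sequences) was found in 0 of the topoisomerase sequences searched. These matches describe letters only, and no binding was measured.

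TOP1 and TOP1MT, the type IB enzymes, were about 2-fold lower in drug-resistant cells. TOP1 relaxes nuclear DNA ahead of polymerases and is the target of camptothecins. TOP1 was at 65.2, 53.2 and 34.7 FPKM in the parental libraries, 22.0 FPKM in CR, 32.4 and 26.3 FPKM in PR and 28.4 FPKM in DR cells. The groups did not overlap, but the gap between parental replicate 3 and PR replicate 1 was small beside the 1.88-fold range of the parental libraries. The log2 change was -1.01 (SE 0.22, adjusted p = 0.00642).

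TOP1MT is the only topoisomerase made solely for mitochondria, and its gene lies on chromosome 8. The level was 15.2, 20.3 and 15.4 FPKM in the parental libraries, 9.14 FPKM in CR, 8.99 and 7.08 FPKM in PR and 8.89 FPKM in DR cells. The drug-resistant libraries lay below every parental library, with PR replicate 2 the lowest and the others close together. The log2 change was -1.09 (SE 0.19, adjusted p = 0.00199).

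TOP3A and TOP3B, the type IA enzymes, did not pass the test. TOP3A unlinks joined DNA molecules together with BLM and RMI1, in the nucleus and in mitochondria, and TOP3B acts on both DNA and RNA with TDRD3. TOP3A was at 7.84, 6.12 and 6.25 FPKM in the parental libraries, 5.46 FPKM in CR, 5.89 and 6.10 FPKM in PR and 5.04 FPKM in DR cells. The drug-resistant libraries were all below the parental libraries, but the gap between the groups was smaller than the spread within either group. The log2 difference was -0.40 (95% interval -0.80 to -0.0025, adjusted p = 0.109).

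TOP3B was at 5.89, 5.06 and 4.94 FPKM in the parental libraries, 4.14 FPKM in CR, 6.10 and 5.68 FPKM in PR and 5.21 FPKM in DR cells. The groups overlapped, with the highest level in PR replicate 1 and the lowest in CR cells. The log2 difference was -0.12 (95% interval -0.49 to 0.25, adjusted p = 0.604), and its sign turned under upper-quartile scaling (0.059). TOP3B shares 6024 exonic bases with the antisense gene AC245452.1 in GENCODE 29, and reads from both cannot be told apart if strand was not used in counting.

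Across the family, 4 of 6 genes were called lower and 0 of 6 higher in drug-resistant cells, against 15.3% of all tested genes called lower and 18.5% called higher. In 5 of 6 genes the highest drug-resistant level was under the lowest parental level, which held for 13.6% of genes. The median log2 change of all tested genes was 0.06, and 0.23 under upper-quartile scaling. Of all calls 54.6% were higher, and 67.4% were under upper-quartile scaling, under which the same number of topoisomerases, 4, was called. The labels write the library names with or without a dash, and what this marks is not given in the sources used here. PR replicate 1 was the only drug-resistant library without a dash, so its level and the spelling cannot be told apart. Among names without a dash (1 drug-resistant and 2 parental libraries) TOP2A differed by -2.26 on the log2(FPKM + 1) scale. Among names with a dash (3 and 1 libraries) TOP2A differed by -4.78. The corresponding differences were -0.50 and -1.42 for TOP2B, -0.54 and -1.04 for TOP1 and -0.71 and -1.20 for TOP1MT. With this spelling as a covariate in edgeR, the adjusted p was 0.00195 for TOP2A, 0.00608 for TOP2B, 0.022 for TOP1 and 0.00572 for TOP1MT.

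**Figure D2:**
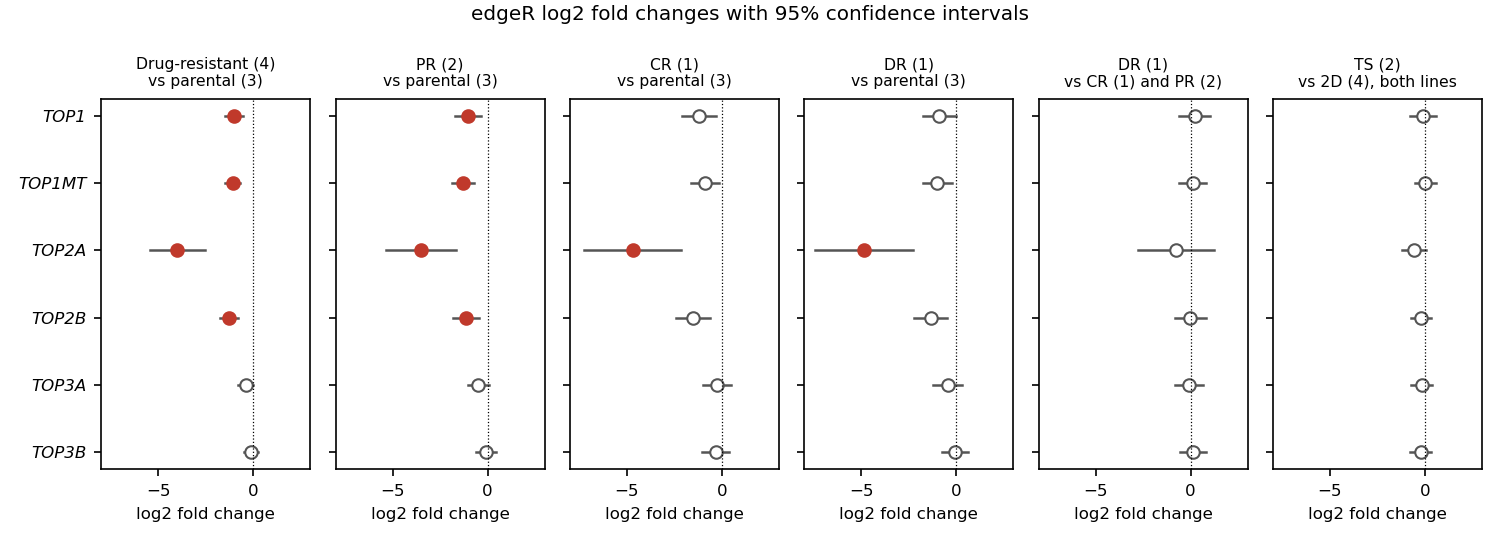
Fitted log2 fold change (point) and 95% confidence interval (line) of each topoisomerase in 6 comparisons, with the number of libraries in parentheses. Filled points have an adjusted p under 0.05 in edgeR. 4 of 6 genes are filled for all drug-resistant libraries and for PR, TOP2A alone for CR and for DR, and 0 in the last pair of comparisons.

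The levels of the family were reordered as well. In every parental library the order from high to low was TOP2A, TOP1, TOP2B, TOP1MT, TOP3A and TOP3B, although the ranges of TOP2B and TOP1MT overlapped. TOP1 was the highest in all 4 drug-resistant libraries. TOP2A was the lowest of the 6 in CR, PR replicate 2 and DR cells and ranked 2nd in PR replicate 1. Below TOP1, neighbouring genes of the drug-resistant order did not differ beyond their spread. The summed level of the 6 genes was 149 to 202 FPKM in parental and 50.9 to 82.1 FPKM in drug-resistant libraries. TOP2A made up 43.1% to 47.0% of that sum in parental and 2.82% to 18.7% in drug-resistant libraries, while the TOP3A and TOP3B sum overlapped, at 11.2 to 13.7 against 9.60 to 12.0 FPKM.

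**Figure D3:**
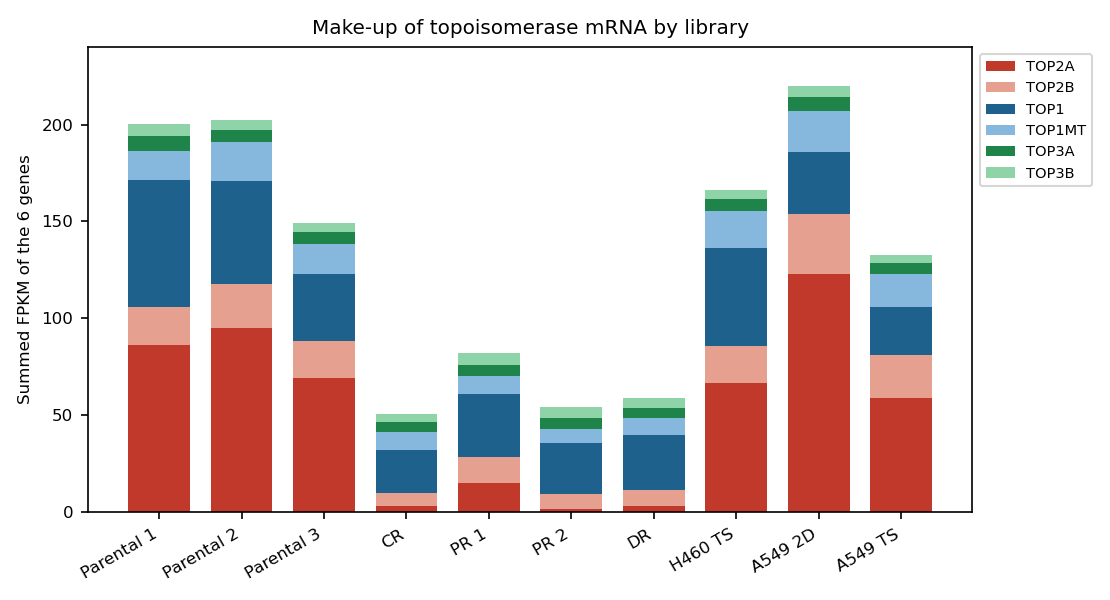
Summed FPKM of the 6 topoisomerase mRNAs in each library, stacked by gene from 0. The sum is 149 to 202 FPKM in parental libraries and 50.9 to 82.1 FPKM in drug-resistant libraries, in which the TOP2A segment shrinks most.

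The drugs were then compared with the parental cells separately. These comparisons share the 3 parental libraries. For PR cells, 4 of 6 genes were called lower, against 10.6% of 19430 genes called lower. Of all PR calls 62.2% were higher, and 75.9% were under upper-quartile scaling and 74.9% when scaled to library totals without TMM, the normalization used otherwise. The log2 change was -3.51 for TOP2A (SE 0.82, adjusted p = 0.0129), -1.30 for TOP1MT (SE 0.26, adjusted p = 0.00751), -1.14 for TOP2B (SE 0.30, adjusted p = 0.0219) and -1.02 for TOP1 (SE 0.31, adjusted p = 0.036). TOP3A (-0.48, adjusted p = 0.185) and TOP3B (-0.08, adjusted p = 0.819) did not pass. The TOP2A levels of the PR replicates were 9.98-fold apart, and their library names differed in the dash. Without PR replicate 2 only TOP2A stayed past the threshold (-2.65), and the adjusted p was 0.293 for TOP1, 0.121 for TOP1MT and 0.246 for TOP2B. TOP1 was also lost without PR replicate 1 (0.108) or parental replicate 1 (0.0706), and without parental replicate 2 both TOP1 (0.0804) and TOP2B (0.0646) were lost.

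CR and DR cells have 1 library each, and their tests assume that this library varies as the parental and PR replicates do. TOP2A was the only topoisomerase called in CR cells (-4.70, SE 1.15, adjusted p = 0.0419), where 2.17% of 21362 genes were called lower. It was also the only topoisomerase called in DR cells (-4.86, SE 1.16, adjusted p = 0.0315), where 2.39% were called lower. Both calls were lost without parental replicate 2 (adjusted p = 0.114 for CR and 0.093 for DR) or parental replicate 3 (0.0631 and 0.0581). TOP2B missed the threshold in both, at -1.53 in CR (adjusted p = 0.0523) and -1.35 in DR (adjusted p = 0.064). TOP1 was at -1.21 and -0.90 (adjusted p = 0.103 and 0.187) and TOP1MT at -0.89 and -0.99 (adjusted p = 0.148 and 0.104). Without parental replicate 3, TOP1 was called in CR (0.0437), and without parental replicate 1, TOP2B was called in CR (0.0472).

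Doxorubicin is the only drug of the 3 that targets topoisomerases, so DR cells were compared with CR and PR cells. In edgeR 0 of 6 topoisomerases and 0 of 21362 genes were called (percent called 0, with 666 genes at an unadjusted p under 0.05, and 8 genes called by DESeq2). The log2 difference was -0.75 for TOP2A, with a 95% interval from -2.75 to 1.24, and it turned to 0.50 without PR replicate 1. It was 0.21 for TOP1 (-0.62 to 1.04), -0.02 for TOP2B (-0.84 to 0.81) and 0.10 for TOP1MT (-0.63 to 0.83). It was -0.09 for TOP3A (-0.83 to 0.65) and 0.11 for TOP3B (-0.58 to 0.80). These intervals are wide with 1 DR library, and a p that misses the threshold does not show that the drugs act alike.

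Genes that work with topoisomerases were then described from lists, beside the 15.3% of tested genes called lower and the 18.5% called higher in all drug-resistant cells. The lists, like the topoisomerases, were chosen with earlier results of these data known. Their counts beside these shares are therefore a description and not a test. Of 7 partners and SUMO or ubiquitin ligases of topoisomerases, 5 fell and 0 rose (median log2 change -1.60). BLM, the helicase that works with TOP3A, fell from 3.50 ± 0.96 to 0.396 ± 0.296 FPKM (log2 change -3.35, adjusted p = 0.000582). RMI1 (-1.89) and RMI2 (-2.29), which complete that complex, fell too (adjusted p = 0.000582 and 0.00436), while TOP3A itself did not pass the test. TDRD3, the partner of TOP3B, fell by 0.55 on the log2 scale (adjusted p = 0.0393). TOPORS, a ligase that binds TOP1, was at -0.24 (adjusted p = 0.337), and ZNF451, a SUMO ligase that acts with TDP2, was at -0.26 (adjusted p = 0.267).

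Of 12 genes that remove topoisomerases stuck on DNA or mend the break, 7 fell and 0 rose (median -0.65). TDP1, which cuts TOP1 from DNA, fell from 10.8 ± 1.66 to 4.57 ± 0.43 FPKM (log2 change -1.35, adjusted p = 0.000374). TDP2, which does the same for type II enzymes, was at 28.1 ± 7.51 FPKM in parental and 30.1 ± 6.59 FPKM in drug-resistant cells (log2 difference -0.02, adjusted p = 0.959). PARP1 (-1.39, adjusted p = 0.00131), a break sensor, and RBBP8 (-1.25, adjusted p = 0.00469), which encodes the end-processing factor CtIP, fell as well. So did NBN (-1.24, adjusted p = 0.00156) and MRE11 (-1.19, adjusted p = 0.000964) of the break-binding MRN complex, both named after their values were seen. RAD50, the remaining gene of that complex, was at 9.19 to 9.26 FPKM in parental and 7.74 to 12.5 FPKM in drug-resistant libraries, which overlap. It, too, was named after its values were seen. Of 5 RecQ helicases, 4 fell and 1 rose (median -0.87). BLM was followed by RECQL4 (-2.33, adjusted p = 0.000417) and RECQL (-0.87, adjusted p = 0.00566), and RECQL5 was the gene that rose (0.87, adjusted p = 0.0112), named here after its value was seen.

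The chromosome-shaping complexes that act beside type II topoisomerases were lower. Of 8 condensin subunits, 8 fell (median -2.66), led by NCAPG (-3.58, adjusted p = 0.000543), NCAPH (-3.49, adjusted p = 0.000373) and NCAPG2 (-2.96, adjusted p = 0.000247). Of 6 genes for cohesin and CTCF, which lie with TOP2B at chromatin loop anchors, 5 fell (median -1.45). SMC3 (-1.90, adjusted p = 0.000534), RAD21 (-1.59, adjusted p = 0.000504) and SMC1A (-1.49, adjusted p = 0.00103) fell most, and CTCF, the gene of this list that was not called, was at -0.38 (adjusted p = 0.197).

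All listed genes of cell division were lower. Of 15 genes of G2 and mitosis 15 fell (median -3.64, from -4.03 to -3.32), and the TOP2A change of -3.99 lay inside that range. CCNB2 (-4.03, adjusted p = 0.000369), BUB1 (-3.83, adjusted p = 0.000953) and AURKB (-3.81, adjusted p = 0.00176) led. The median level of these 15 genes was 35.2 to 50.8 FPKM in the parental libraries, 2.00 in CR, 9.24 and 1.49 in the PR replicates and 2.81 in DR cells, so PR replicate 1 was the highest here too. Its part in the TOP2A level of that library was not tested. Of 12 S phase genes 12 fell (median -2.25), with CDC45 at -3.22 (adjusted p = 0.000407), RRM2 at -3.10 (adjusted p = 0.00128) and GINS2 at -2.67 (adjusted p = 0.000639).

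Beside TOP1MT, 3 of 13 genes for the upkeep and transcription of mitochondrial DNA fell and 0 rose (median -0.55). Of all tested genes 15.3% were called lower, and the count of this short list is near that share. The called genes were TFAM (-1.28, adjusted p = 0.00488), which packages that DNA, LONP1 (-1.08, adjusted p = 0.00268), a protease, and TFB1M (-0.66, adjusted p = 0.0491). The TFAM groups overlapped, with PR replicate 1 at 9.71 FPKM and parental replicate 3 at 9.20 FPKM. The mitochondrial RNA polymerase gene POLRMT was at 0.25 (adjusted p = 0.269). Of 12 genes for the export or reduction of doxorubicin, 3 rose and 0 fell (median 0.25). This count, too, is near the share of all tested genes called higher, 18.5%. ABCC1, an exporter, rose from 18.7 ± 7.79 to 43.3 ± 10.2 FPKM (log2 change 1.05, adjusted p = 0.0297). AKR1B1, a reductase, rose from 194 ± 40.8 to 441 ± 201 FPKM (1.06, adjusted p = 0.0307). AKR1B1 was at 547 and 656 FPKM in PR and 358 FPKM in DR cells. In CR cells it was at 203 FPKM, within the parental range of 162 to 240 FPKM. XDH had 0 reads in the parental libraries and 12 in CR, 74 and 55 in PR and 62 in DR cells, which are low counts (adjusted p = 0.00171). ABCB1, the exporter P-glycoprotein, was at 1.24 (adjusted p = 0.222), with 393 reads in PR replicate 1 and 30 to 116 reads in the other drug-resistant and parental libraries.

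**Figure D4:**
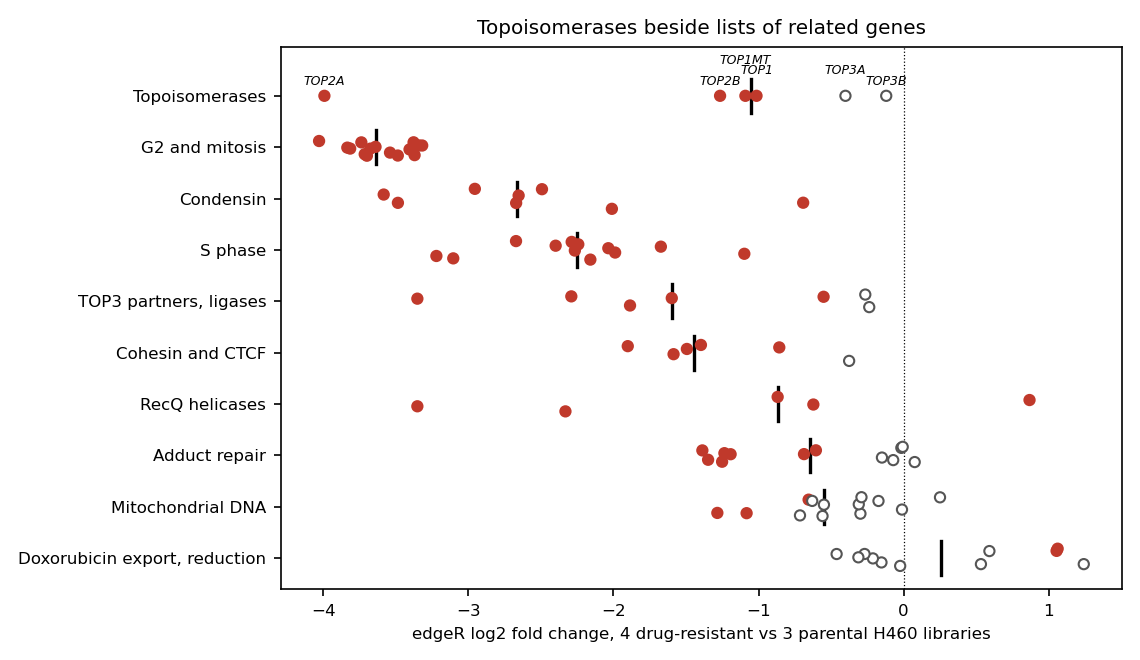
Fitted log2 fold change of each gene, 4 drug-resistant against 3 parental H460 libraries, for the topoisomerases and for 9 lists. Filled points have an adjusted p under 0.05 in edgeR and the vertical bar is the median of the list. TOP2A lies beside the G2 and mitosis genes, which are all filled, and XDH, with 0 reads in parental libraries, is not drawn but is counted in its median.

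TS cells were compared with 2D cells of the same line, grown in another medium. Each line has a single TS library, so the lines were taken as replicates of TS culture. The spread therefore includes differences in response between the lines. In edgeR with the line as a covariate, 0 of 6 topoisomerases were called, where 35 of 18372 genes (0.191%) were called, 1363 genes had an unadjusted p under 0.05 and DESeq2 called 537 genes and 0 topoisomerases. TOP2A had the lowest adjusted p of the 6 (log2 difference -0.58, SE 0.26, adjusted p = 0.721, 95% interval -1.19 to 0.03). The other differences were between -0.23 for TOP3B and 0.01 for TOP1MT. The interval of TOP1MT was -0.55 to 0.56 and that of TOP1 was -0.77 to 0.56. None of the genes of the 9 lists of related genes was called, where edgeR called 0.191% of all genes.

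TOP2A was at 66.6 FPKM in H460 TS cells, 79.7% of the parental mean and just below the lowest parental library. For A549 it was at 123 FPKM in 2D and 58.99 FPKM in TS cells, or 48.1% of the 2D level. On the log2(FPKM + 1) scale this was the only topoisomerase past 2-fold in A549 TS cells, as were 2.04% of genes in the lower direction. In H460 TS cells 0 of 6 were past 2-fold in either direction, and 1.33% of genes were past 2-fold in the lower direction. The share of genes past 2-fold in the higher direction was not counted. With 1 library of each these values have no replicate check. The TOP2A share of type II topoisomerase mRNA was 77.8% for H460 TS cells, 79.6% for A549 cells in 2D and 72.8% for A549 TS cells.

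The other topoisomerases in A549 TS cells were at 70.4% (TOP2B), 78.5% (TOP1), 78.9% (TOP1MT), 77.5% (TOP3A) and 77.9% (TOP3B) of their A549 2D level, so all 6 were lower. Over 12331 genes with a mean of 1 FPKM or more, the median log2(FPKM + 1) difference between the same libraries was -0.07. Lower was thus also the more common direction among these genes, and their share was not counted. In H460 TS cells TOP1 (50.8 FPKM), TOP1MT (19.1 FPKM), TOP2B (19.0 FPKM) and TOP3A (6.28 FPKM) lay within the parental range, and TOP3B (4.45 FPKM) lay below it. The median level of the 15 G2 and mitosis genes was 39.5 FPKM for H460 TS cells, 50.3 FPKM for A549 cells in 2D and 32.3 FPKM for A549 TS cells. The H460 TS level of BLM was 3.80 FPKM, and A549 cells had 5.75 FPKM in 2D and 2.61 FPKM as TS cells. The corresponding TDP1 levels were 7.17, 6.04 and 3.62 FPKM.

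The lines also differed in 2D culture, given here as values of 1 A549 library. TOP2A (123 FPKM), TOP2B (31.4 FPKM) and TOP1MT (21.4 FPKM) were above the highest parental H460 library. TOP1 (31.7 FPKM) was below the lowest, and TOP3A (7.20 FPKM) and TOP3B (5.49 FPKM) lay within the H460 range. The family sum was 220 FPKM, of which TOP2A gave 55.8%.

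The genes whose levels ran most alike with each topoisomerase were found by Pearson's r of log2(FPKM + 1) over the 10 libraries, among 22464 genes. The points share their libraries, and the 4 drug-resistant libraries set much of r, so r over the 6 other libraries is given as well. The genes were picked on all 10 libraries, which include these 6, so r over the 6 is no separate check. The 6 also mix H460 and A549 cells, so differences between the lines enter r. TOP2A ran with AURKB (r = 0.997 over 10 and 0.919 over 6 libraries), KIFC1 (0.996 and 0.965) and TPX2 (0.994 and 0.979), all of mitosis. TOP2B ran with FAR1 (0.984 and 0.844), an enzyme of ether lipid synthesis, RAD21 (0.983 and 0.825), a cohesin subunit, and ARHGAP11A (0.983 and 0.935). TOP1 ran with SLC16A1 (0.983 and 0.986), a lactate transporter, CCT5 (0.980 and 0.970), a chaperonin subunit, and SFXN1 (0.979 and 0.993), a mitochondrial serine transporter. TOP1MT ran with FANCG (0.986 and 0.801), of DNA crosslink repair, MRPL23 (0.983 and 0.895), of the mitochondrial ribosome, and LOC100288637 (0.982 and 0.915). TOP3A ran with HNRNPLL (0.951 and 0.933), BEND3 (0.944 and 0.973) and SMPD4 (0.940 and 0.952), and TOP3B with PALM2AKAP2 (0.934 and 0.961), JRK (0.931 and 0.905) and NAV3 (0.910 and 0.8291). These values describe these libraries only.

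SPO11, a meiotic relative of archaeal topoisomerase VI, had 0 reads in every library. Its partner TOP6BL, listed under its older symbol C11orf80, was at 1.09 to 1.92 FPKM in parental and 1.46 to 2.36 FPKM in drug-resistant libraries, which overlap. It was at 1.12 FPKM in H460 TS, 4.13 FPKM in A549 2D and 4.44 FPKM in A549 TS cells. The TOP1 pseudogene TOP1P1 had 6 to 25 reads and TOP1P2 had 0 or 1, against 6556 or more for TOP1, and how reads shared with these copies were counted is not given in the sources used here.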

How the data were processed

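The gene table of 10 libraries holds read counts, FPKM and TPM. Per the submitters' processing notes, the authors used bcl2fastq 1.8.4, Trimmomatic, HISAT2 2.1.0, StringTie 2.1.3b and GRCh38. The read counts, whole numbers per gene, are as deposited, with no normalization. The FPKM values were deposited by the authors as fragments per kilobase of transcript and library total, and the TPM values deposited by the authors were not used in a test. The counting strand and the handling of shared reads are not given in the sources used here.

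Levels are FPKM, and differences of single libraries are log2(FPKM + 1). Counts were tested with edgeR 4.0.16 (TMM, filterByExpr, quasi-likelihood test) in R 4.3.3, with Benjamini-Hochberg adjustment over all tested genes and a threshold of 0.05. The SE is the absolute log2 change divided by the root of F. CR, DR and their contrast used a fit of 7 H460 libraries. TS used both lines with line as a covariate. The fits were tested on simulated data. Positions are from GENCODE 29, and start sites from RefSeq GRCh38.p14.

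Alternatives were DESeq2 1.42.0, limma 3.58.1 on log2(FPKM + 1) for genes with 1 FPKM or more in 2 libraries, upper-quartile scaling, no filter, the spelling of library names, a replicate block, each library left out, a pseudocount of 0.1 and, added after seeing the data, library totals and read-count shares. The members and lists were chosen with earlier results of these data known. Named were the 6 members, up to 3 called genes with the largest change of each list, BLM, RMI1, RMI2, TDRD3, TDP1, TDP2, ZNF451, TOPORS and the 3 most alike genes per member. RECQL5, NBN, MRE11, RAD50, CTCF, POLRMT, ABCB1, C11orf80, SPO11 and the TOP1 pseudogenes fall outside this rule and were named after their values were seen. Cell type markers were a list of their own.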

Additional observations from a re-analysis of the deposited data

Results flagged for a closer look

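With 4 libraries in the drug-resistant group, the distance of the highest or lowest library from its nearest neighbour, divided by the whole range, was set against Dixon's critical value (95%) for each of the 6 topoisomerases. TOP2A in PR replicate 1 was the highest at 15.3 FPKM (ratio 0.879). TOP1MT in PR replicate 2 was the lowest at 7.08 FPKM (ratio 0.875). Both ratios are of FPKM over libraries of different drugs. No ratio was taken on the log2 scale, so the flags may depend on the scale. Chance flags about 1 in 20 groups. Without PR replicate 1 the fitted TOP2A change of drug-resistant against parental cells was -5.07 on the log2 scale, and it stayed past the threshold.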

How the results depend on the processing

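For drug-resistant against parental cells, the 4 called topoisomerases stayed called under each alternative that gave an adjusted p. The cause of the changes given here was not tested. DESeq2 gave no adjusted p for TOP2A in that comparison, so it called 3 topoisomerases there and is no check of the TOP2A call. Why DESeq2 gave none was not examined. With each library left out in turn, 4215 to 6585 genes were called there and 4 topoisomerases each time. The corresponding ranges were 950 to 6661 genes and 1 to 4 topoisomerases for PR, 306 to 1818 genes and 0 to 2 topoisomerases for CR, 471 to 2238 genes and 0 to 1 topoisomerases for DR, 0 to 2 genes for DR against CR and PR, and 6 to 35 genes for TS against 2D. The lowest counts came without PR replicate 2 for PR (5455 genes with all libraries) and without parental replicate 2 for CR (1332), DR (1761) and TS (35). TS gave 10 genes without parental replicate 3.

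DESeq2 called 2530 genes and 3 topoisomerases in CR (TOP1 and TOP2B as well), 3 topoisomerases in DR (TOP1MT and TOP2B as well), 8 genes in DR against CR and PR and 537 genes in TS. limma called 3026 genes in PR and 1127 in DR. The number of topoisomerases called in CR was 2 with upper-quartile scaling, limma or library totals, where TOP2B passed, and 0 without a filter, where TOP2A had an adjusted p of 0.0536. In PR, TOP1 was lost under upper-quartile scaling (adjusted p = 0.0596), limma (0.0956) and library totals (0.0635).

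The sign of TOP3B turned under upper-quartile scaling in drug-resistant cells (0.059), PR (0.16) and DR (0.059), and in PR also under limma (0.13) and library totals (0.12). In DR against CR and PR, TOP2A turned to 0.50 and TOP2B to 0.22 without PR replicate 1 (ranges -1.19 to 0.50 and -0.20 to 0.22 with each library left out), and TOP2B to 0.015 under limma. In TS, TOP1 turned to 0.0095 without parental replicate 1 (range -0.22 to 0.0095). TOP1MT in TS turned to -6.03e-05 under DESeq2, -0.024 under upper-quartile scaling, -0.028 under limma, -0.026 with library totals, -0.053 without parental replicate 1 and -0.019 without parental replicate 3 (range -0.053 to 0.050). None of the values that turned passed a threshold. With a pseudocount of 0.1, the TOP2A difference from the parental mean was -4.65 for CR, -5.66 for PR replicate 2 and -4.75 for DR.

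PR and parental replicates share the numbers 1 and 2. Over 12496 genes the deviations of same-numbered libraries correlated with 0.156, and 2 such pairs do not establish a pairing. With the replicate block, 6775 genes and 4 topoisomerases were called, against 6661 and 4 in the same libraries without the block. TOP2A changed by -4.40 with the block and by -3.60 without it. The dash in the library names divides these libraries in the same way, so the block and the spelling cannot be told apart.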
